A study of Mus musculus with 8 samples.

Results

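The 48 genes described here encode the DNA replication machinery: the origin recognition complex, the licensing factors, the replicative helicase, the factors that fire origins, the replicative polymerases, the sliding clamp and its loader, the proteins that process single strands and Okazaki fragments, and the enzymes that supply nucleotides. They were chosen by symbol for their known roles, by a rule that uses no measured value, with earlier results of these data known. All 48 had at least 1 probe set of their own among the 19938 genes measured. Expression was measured in bone marrow hematopoietic stem cells sorted as KSL SLAM cells (lineage negative, c-Kit+, Sca-1+, CD150+, CD48- and CD41-). The G-CSF mice had received granulocyte colony-stimulating factor, the cytokine that drives neutrophil production, subcutaneously at 125 mcg per kg 2 times a day, and the mice of the other group had received phosphate-buffered saline (PBS), each for 36 h. Each group had 4 arrays, and each array held cells pooled from 5 to 10 mice. The labels name no strain, age or genotype for the mice.

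Before a cell can copy its DNA, the origin recognition complex binds origins and, with Cdc6 and Cdt1, loads the MCM2-7 helicase in an inactive form. The kinase Cdc7 with its partner Dbf4, together with Cdc45 and the GINS complex, then turns MCM2-7 into the active CMG helicase, and polymerases alpha, delta and epsilon copy the strands. E2F transcription factors control many of these genes at the passage from G1 to S phase, and most long-term stem cells in adult marrow are quiescent.

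The median of all genes lay between 5.74 and 5.89 on the log2 intensity scale on the 8 arrays. PBS replicate 3 differed from the rest: the middle 50% of its genes spanned 1.68 log2 units, against 2.42 to 2.80 on the other arrays, and its correlation with them across genes was at most 0.903, where the other 7 correlated at 0.956 or more. The 9969 genes with the higher mean over all arrays, called bright genes here, averaged 6.98 on that array, against 7.32 to 7.45 on the others, and 46 of the 48 replication genes are bright genes, so values are given with and without that array. Of the genes that define the sort, Kit had log2 intensities of 10.24 to 10.49 in G-CSF samples and 10.45 to 10.94 in PBS samples, and Slamf1, the gene of CD150, had 6.05 to 7.16 in G-CSF samples and 5.94 to 7.24 in PBS samples. Cd48, whose product the sort selects against, had 7.31, 7.24, 7.85 and 8.95 in G-CSF replicates 1 to 4, against 7.54, 7.01, 7.57 and 6.66 in PBS replicates 1 to 4. RMA gives no detection call, so absence of a transcript cannot be read from these values.

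No replication gene passed an adjusted p of 0.05 between G-CSF and PBS samples (limma over all genes, Benjamini-Hochberg), in either direction, where 0.0953% of all genes were called higher and 0% lower. The lowest adjusted p was that of Dbf4, 0.305. At an unadjusted p under 0.05, 7 of the 48 were higher (14.6%) and 0 lower, against 6.07% and 2.94% of all genes. The 7 were Dbf4, Rrm2, Rrm1, Gmnn, Mcm10, Orc6 and Dut. Among bright genes, 11% were higher by the same criterion, so with all arrays the share of replication genes was near that of bright genes. In 3 genes, Dbf4, Rrm2 and Mcm10, all G-CSF values lay above all PBS values, which is 6.25% of the 48, against 3.37% of all genes and 6.18% of bright genes.

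The log2 fold change (G-CSF minus PBS) was above 0 in 44 of the 48 genes (91.7%), against 41.7% of all genes and 66.5% of bright genes. Its median over the 48 was 0.37, against -0.07 over all genes and 0.13 over bright genes. Without PBS replicate 3 the median was 0.23, against 0.05 over bright genes. Without that array 40 of the 48 were above 0 (83.3%), against 46.9% of all genes and 58.1% of bright genes. After renewed quantile normalization the median was 0.28, against 0.06 over bright genes. Of the 48, 37 were then above 0, against 48.5% of all genes and 5729 of the 9969 bright genes. The count at an unadjusted p under 0.05 was 15 without G-CSF replicate 1 (5.69% of all genes under the same setting). It was 12 without PBS replicate 1 (7.48%), 11 with array weights (6.55%) and 9 without PBS replicate 3 (5.64%). It was 4 without G-CSF replicate 4 (4.05%) and 3 without G-CSF replicate 3 (5.05%). The count of genes whose groups did not overlap was 14 without G-CSF replicate 1 (5.78% of all genes under the same setting), 9 without PBS replicate 1 (6.22%), 6 without PBS replicate 3 (4.76%), 5 without PBS replicate 2 (5.35%) and 1 after quantile normalization (3.31%). For both counts, the share of bright genes under these settings was not computed. With all arrays, the 95% interval of the log2 fold change lay below 1 in 29 of the 48 genes, and it included 0 in 41.

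**Figure D1:**
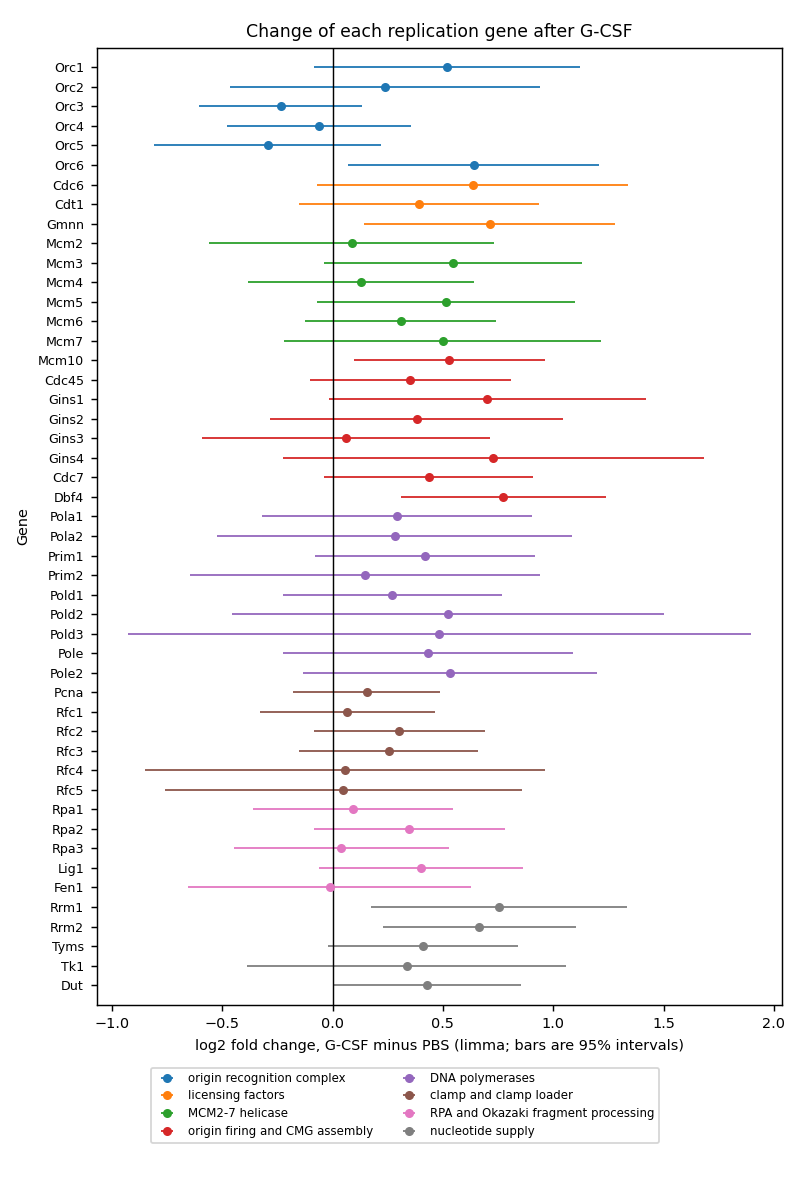
Log2 fold change of each of the 48 replication genes, G-CSF minus PBS (x axis), with its 95% interval from limma as a bar and colours for the role groups. The points of 44 genes lie right of 0, the intervals of 41 genes include 0, and the genes left of 0 are Orc3, Orc4, Orc5 and Fen1.

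Promoters of 4 MCM2-7 genes, textbook targets of E2F, are shown because each carried more than 1 copy of the E2F letters (Mcm2 had a window without them and Mcm4 had none), and those of Dbf4 and Rrm2 because these had the 2 lowest p-values among the 48. Each window runs from 250 bases before to 50 bases after a transcript start (RefSeq, GRCm38.p6), 5′ to 3′ on the gene's strand, with matches to TTTGGCGC, TTTCGCGC, TTTCCCGC or TTTGCCGC on either strand in capitals. In Mcm5 and in 1 place in Mcm6, matches on the 2 strands overlap.
Mcm3, chr1:20820263-20820562, minus strand: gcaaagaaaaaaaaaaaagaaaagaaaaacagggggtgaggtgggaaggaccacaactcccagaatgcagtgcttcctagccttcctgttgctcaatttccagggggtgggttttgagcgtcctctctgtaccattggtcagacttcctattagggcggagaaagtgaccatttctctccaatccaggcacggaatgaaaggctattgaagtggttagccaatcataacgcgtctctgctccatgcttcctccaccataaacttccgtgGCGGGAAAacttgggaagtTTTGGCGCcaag
Mcm5, chr8:75109259-75109558, plus strand: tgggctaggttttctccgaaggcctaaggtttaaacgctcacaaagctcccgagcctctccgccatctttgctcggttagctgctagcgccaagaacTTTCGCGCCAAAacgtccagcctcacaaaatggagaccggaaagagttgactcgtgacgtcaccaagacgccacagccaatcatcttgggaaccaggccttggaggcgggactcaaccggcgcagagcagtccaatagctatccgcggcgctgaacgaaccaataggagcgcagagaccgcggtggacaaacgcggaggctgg
Mcm6, chr1:128359656-128359955, minus strand: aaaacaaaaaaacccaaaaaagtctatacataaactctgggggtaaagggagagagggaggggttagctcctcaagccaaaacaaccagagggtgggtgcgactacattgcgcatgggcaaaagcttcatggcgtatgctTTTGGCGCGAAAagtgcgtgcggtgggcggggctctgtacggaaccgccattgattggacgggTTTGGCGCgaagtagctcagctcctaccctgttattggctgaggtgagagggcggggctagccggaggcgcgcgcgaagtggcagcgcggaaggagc
Mcm7, chr5:138171834-138172133, minus strand: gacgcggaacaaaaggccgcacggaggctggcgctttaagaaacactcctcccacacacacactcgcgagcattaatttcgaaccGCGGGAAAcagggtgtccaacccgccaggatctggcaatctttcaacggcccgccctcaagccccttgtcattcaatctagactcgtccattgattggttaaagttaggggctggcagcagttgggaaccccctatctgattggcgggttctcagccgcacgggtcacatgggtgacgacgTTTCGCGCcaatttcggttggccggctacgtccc
Dbf4, chr5:8422667-8422966, minus strand: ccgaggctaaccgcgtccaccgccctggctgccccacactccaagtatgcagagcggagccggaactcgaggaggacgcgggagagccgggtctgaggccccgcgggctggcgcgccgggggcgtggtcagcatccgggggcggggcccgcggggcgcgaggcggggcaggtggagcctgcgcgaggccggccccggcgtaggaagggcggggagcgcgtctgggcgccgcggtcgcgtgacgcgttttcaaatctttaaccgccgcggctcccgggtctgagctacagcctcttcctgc
Rrm2, chr12:24708004-24708303, plus strand: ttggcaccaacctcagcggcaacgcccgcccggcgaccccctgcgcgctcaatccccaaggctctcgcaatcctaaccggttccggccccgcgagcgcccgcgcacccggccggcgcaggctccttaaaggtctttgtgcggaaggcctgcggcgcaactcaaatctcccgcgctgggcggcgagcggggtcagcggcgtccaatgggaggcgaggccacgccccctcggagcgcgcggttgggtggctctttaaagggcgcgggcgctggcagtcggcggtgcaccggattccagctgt

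RefSeq windows were found for 40 of the 48 genes, the others being Gmnn, Mcm4, Gins1, Gins2, Gins4, Prim2, Pole and Rfc2. For genes with several windows, the first listed was used. The E2F letters stood in 14 of 40 windows (35.0%), against 2.92% of 17491 windows of protein-coding genes and 2.32% of 27025 windows of all genes. The 14 were those of Cdc6, Cdt1, Gins3, Mcm3, Mcm5, Mcm6, Mcm7, Orc1, Orc3, Pola1, Pold1, Pold3, Pole2 and Rfc3. More than 1 match was found in 5 windows, 4 of them of MCM2-7 genes, and Rfc3 was the other. The median G and C content was 61.8% in the windows of the replication genes and 56.3% in those of protein-coding genes, and its part in the shares was not tested.

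The letters CCAAT, on either strand, stood in 22 of the 40 windows (55%), against 39% of windows of protein-coding genes. The letters TTTGAA, which form the cell cycle homology region (CHR) of many mitotic promoters, stood in 6 (15.0%), against 16.5%. The 14 genes with E2F letters had a median log2 fold change of 0.44 and a range of -0.23 to 0.64. The 26 without had a median of 0.34 and a range of -0.29 to 0.77, so the ranges overlapped nearly in full. Of these 26, Lig1 held the letters in a window other than its first listed. Without PBS replicate 3 the order of the medians turned, at 0.19 for the 14 genes with the letters and 0.30 for the 26 without. Of the 6 genes with a window among the 7 at an unadjusted p under 0.05, 0 held the E2F letters, which says only that these letters are not in those 300 bases.

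Within the origin recognition complex, the 6 subunits differed in sign. Orc6, the subunit that joins the other 5 most loosely, had 7.63, 7.597, 8.31 and 7.53 in G-CSF replicates 1 to 4, against 7.70, 7.20, 6.998 and 6.62 in PBS replicates 1 to 4. Its log2 fold change was 0.64 ± 0.26 SE (limma adjusted p = 0.517, and 0.286 to 0.838 over the alternatives), and PBS replicate 1 lay above 3 of the G-CSF values. Orc1, the ATPase subunit whose level varies over the cell cycle, had 4.91, 5.46, 5.67 and 6.23 in G-CSF samples, against 5.17, 4.89, 4.70 and 5.44 in PBS samples, and G-CSF replicate 1 lay below 2 of the PBS values. Its log2 fold change was 0.52 ± 0.27 SE (limma adjusted p = 0.574). Orc3 had 8.23, 8.62, 8.36 and 8.68 in G-CSF samples, against 8.67, 8.64, 8.85 and 8.67 in PBS samples. The groups overlapped only through G-CSF replicate 4, and the log2 fold change was -0.23 ± 0.17 SE. Orc5 had -0.29 ± 0.23 SE (-0.45 without PBS replicate 3), Orc4 had -0.06 ± 0.19 SE and Orc2 had 0.24 ± 0.32 SE. Orc1 and Orc6 were thus the subunits with the highest log2 fold changes of the complex, and no test of the difference between subunits was made.

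The 3 genes grouped as licensing factors, the loaders Cdc6 and Cdt1 and the inhibitor geminin, had positive log2 fold changes. Of these 3, only geminin had an unadjusted limma p under 0.05. Geminin (Gmnn), which binds Cdt1 and blocks relicensing in S and G2 phase, had 5.97, 6.18, 6.63 and 6.68 in G-CSF replicates 1 to 4, against 5.02, 5.65, 6.14 and 5.81 in PBS replicates 1 to 4. The groups overlapped because PBS replicate 3 lay above G-CSF replicate 1, and the log2 fold change was 0.71 ± 0.26 SE (limma adjusted p = 0.469), or 0.87 without PBS replicate 3. Cdc6, the ATPase that loads MCM2-7 with the origin recognition complex, had 5.64, 6.11, 6.63 and 7.16 in G-CSF samples, against 6.12, 5.57, 5.25 and 6.06 in PBS samples. Its G-CSF values were spread (SD 0.66), replicate 1 lay below 2 of the PBS values, and the log2 fold change was 0.64 ± 0.32 SE. Cdt1, the partner of Cdc6 in loading, had 6.78, 6.67, 7.15 and 7.64 in G-CSF samples, against 7.06, 6.76, 6.29 and 6.58 in PBS samples. G-CSF replicates 3 and 4 lay above all PBS values of Cdt1 and replicates 1 and 2 among them, with a log2 fold change of 0.39 ± 0.25 SE.

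MCM2-7 is the ring that unwinds DNA, and its 6 subunits work in equal number. All 6 genes had a positive log2 fold change (5 after quantile normalization, where Mcm2 was at -0.01), with a median of 0.40 with all arrays and 0.27 without PBS replicate 3, and the groups overlapped in each. Mcm3 had 8.03, 8.09, 8.43 and 8.58 in G-CSF replicates 1 to 4, against 8.06, 8.03, 6.92 and 7.93 in PBS replicates 1 to 4. The low value of PBS replicate 3 set much of its log2 fold change of 0.54 ± 0.27 SE, which was 0.27 without that array. Mcm7 had 7.72, 7.70, 7.78 and 8.26 in G-CSF samples, against 8.001, 7.54, 6.28 and 7.64 in PBS samples. Its log2 fold change of 0.50 ± 0.33 SE was 0.14 without PBS replicate 3. Mcm5 had 7.43, 7.58, 8.05 and 8.40 in G-CSF samples, against 7.59, 7.81, 7.05 and 6.97 in PBS samples, with G-CSF replicates 3 and 4 above every PBS value and a log2 fold change of 0.51 ± 0.27 SE.

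Mcm6 had 9.196, 9.57, 9.38 and 9.59 in G-CSF samples, against 9.36, 9.08, 9.37 and 8.70 in PBS samples, and PBS replicate 4 was the low value. The log2 fold change was 0.31 ± 0.20 SE. Mcm4 had 8.11, 8.48, 7.94 and 8.55 in G-CSF samples, against 8.39, 7.93, 8.56 and 7.70 in PBS samples, so the groups covered nearly the same range. The log2 fold change was 0.13 ± 0.23 SE, and 0.27 without PBS replicate 3. Mcm2 had 7.70, 7.71, 7.75 and 8.34 in G-CSF samples, against 8.35, 8.05, 7.83 and 6.91 in PBS samples. PBS replicate 1 was its highest value and PBS replicate 4 its lowest, and the log2 fold change was 0.09 ± 0.29 SE (95% interval -0.56 to 0.73), and -0.01 after quantile normalization.

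**Figure D2:**
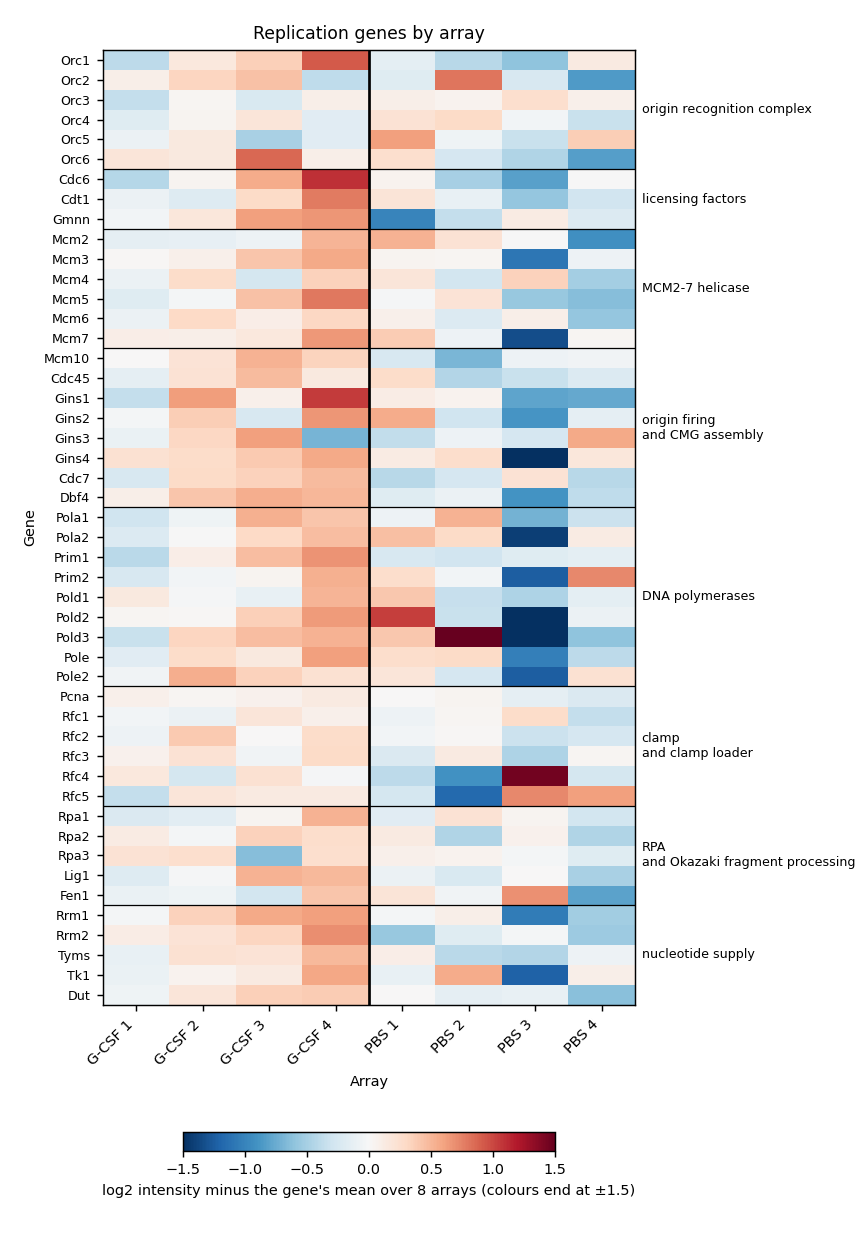
Log2 intensity of the 48 replication genes (rows, by role group) on the 4 G-CSF and 4 PBS arrays (columns), each shown as the difference from the gene's mean over 8 arrays. G-CSF replicate 4 was the highest of the 8 arrays for 24 genes, and PBS replicate 3 the lowest for 22.

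Among the factors that fire origins, Dbf4, the activating subunit of the Cdc7 kinase, had the lowest p of the 48 genes. It had 6.92, 7.25, 7.38 and 7.33 in G-CSF replicates 1 to 4, against 6.65, 6.75, 5.93 and 6.45 in PBS replicates 1 to 4, so that the groups did not overlap. Its level was 1.71-fold higher (log2 fold change 0.77 ± 0.21 SE, 95% interval 0.31 to 1.24, limma adjusted p = 0.305, and 0.149 to 0.742 over 17 alternatives). The log2 fold change was 0.60 without PBS replicate 3 and 0.75 after quantile normalization. Cdc7 itself had 5.99, 6.51, 6.57 and 6.70 in G-CSF samples, against 5.81, 5.97, 6.44 and 5.81 in PBS samples. PBS replicate 3 was the value that made its groups overlap, and the log2 fold change was 0.43 ± 0.22 SE, or 0.58 without that array. Mcm10, which helps to activate the loaded helicase, had 6.41, 6.61, 6.93 and 6.74 in G-CSF samples, against 6.17, 5.73, 6.34 and 6.36 in PBS samples. The groups did not overlap, by a narrow margin, and the log2 fold change was 0.53 ± 0.20 SE (limma adjusted p = 0.483).

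The 4 GINS subunits, which form 1 complex, were uneven. Gins1 had 5.53, 6.53, 5.97 and 6.95 in G-CSF samples, against 6.002, 5.94, 5.10 and 5.13 in PBS samples, with a log2 fold change of 0.70 ± 0.33 SE and overlap through G-CSF replicates 1 and 3. Gins4 had 7.66 to 8.001 in G-CSF samples, against 5.42 in PBS replicate 3 and 7.56 to 7.70 in the other PBS samples. Its log2 fold change was 0.73 ± 0.43 SE, and 0.18 without PBS replicate 3. Gins2 had 0.38 ± 0.30 SE and Gins3 had 0.06 ± 0.30 SE, which were 0.15 and -0.01 without it, in that order. Cdc45, the third part of the CMG helicase beside MCM2-7 and GINS, had 0.35 ± 0.21 SE. The 8 genes of this group had a median of 0.48, and of 0.43 without PBS replicate 3.

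The 9 polymerase and primase genes had a median log2 fold change of 0.42 with all arrays and of 0.11 without PBS replicate 3, and 6 of the 9 were then above 0. The mean of the 9 genes was 6.89 to 7.57 on the G-CSF arrays, against 5.93 on PBS replicate 3 and 6.99 to 7.36 on the other PBS arrays. Prim1, the catalytic subunit of primase, had 7.46, 7.97, 8.33 and 8.54 in G-CSF replicates 1 to 4, against 7.62, 7.58, 7.69 and 7.72 in PBS replicates 1 to 4. Its PBS values were close together (SD 0.06), its G-CSF values were spread (SD 0.47), and G-CSF replicate 1 was its lowest value. The log2 fold change was 0.42 ± 0.23 SE, and 0.43 without PBS replicate 3.

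Pole2, the second subunit of polymerase epsilon, had 6.07, 6.67, 6.48 and 6.36 in G-CSF samples, against 6.31, 5.88, 4.90 and 6.35 in PBS samples. Pole, the catalytic subunit, had 6.69, 7.14, 7.004 and 7.48 in G-CSF samples, against 7.13, 7.15, 5.83 and 6.47 in PBS samples. In both genes PBS replicate 3 was the lowest array, and the log2 fold changes of 0.53 ± 0.30 SE (Pole2) and 0.43 ± 0.30 SE (Pole) were 0.21 and 0.16 without it, in that order. Pold3, an accessory subunit of polymerase delta, ranged from 7.003 to 7.85 in G-CSF samples and from 5.00 to 8.90 in PBS samples, the widest PBS spread of the 48 genes (SD 1.65). Its log2 fold change was 0.48 ± 0.64 SE, and -0.21 without PBS replicate 3. Pola2 of the polymerase alpha complex had 0.28, or -0.14 without that array, and the primase subunit Prim2 had 0.15, or -0.24. Pola1, Pold1 and Pold2 had 0.29, 0.27 and 0.52 with all arrays, against 0.11, 0.16 and 0.06 without it.

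**Figure D3:**
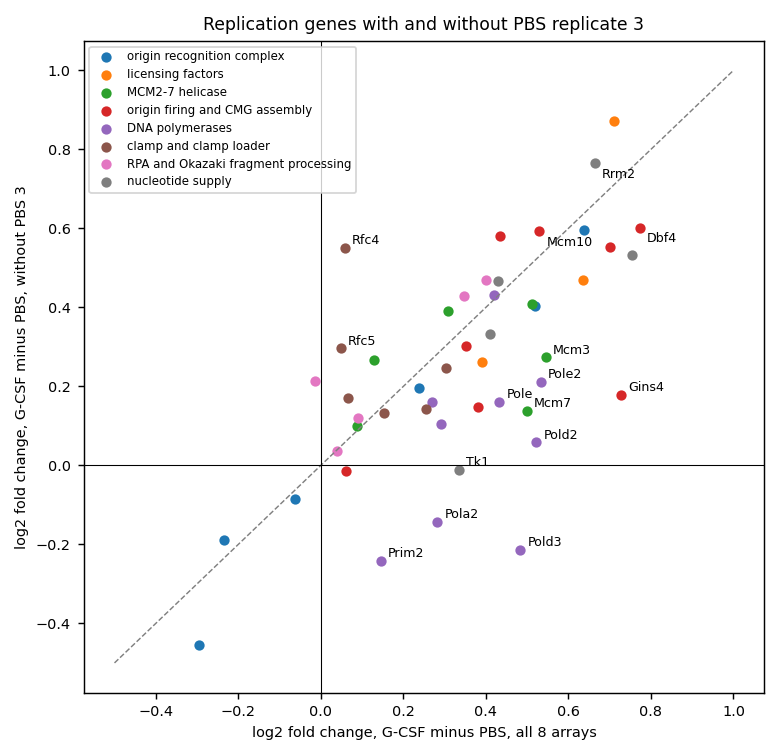
Log2 fold change of the 48 replication genes with all 8 arrays (x axis) and without PBS replicate 3 (y axis), with a dashed line of equal values. The polymerase genes other than Prim1 lie below the line, Pold3 with -0.21 without that array against 0.48 with it, and the clamp loader genes Rfc4 and Rfc5 lie above it.

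Genes of the clamp and its loader had small log2 fold changes, with a median of 0.11, and of -0.02 after quantile normalization, where 2 of the 6 were above 0. Without PBS replicate 3 the median was 0.21 with 6 of 6 above 0. Pcna, the sliding clamp, had 10.55, 10.50, 10.53 and 10.61 in G-CSF replicates 1 to 4, against 10.48, 10.51, 10.33 and 10.25 in PBS replicates 1 to 4. Its values were tight (SD 0.05 in G-CSF samples and 0.12 in PBS samples), and its log2 fold change of 0.15 ± 0.15 SE had a 95% interval of -0.18 to 0.49. A second Pcna probe set gave a difference of 0.18. After quantile normalization the value was -0.02.

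Rfc2 had 7.88, 8.35, 7.96 and 8.23 in G-CSF samples, against 7.91, 7.97, 7.63 and 7.70 in PBS samples, and Rfc3 had 7.54, 7.70, 7.43 and 7.77 in G-CSF samples, against 7.27, 7.62, 7.01 and 7.52 in PBS samples. The groups overlapped for both genes, with log2 fold changes of 0.30 ± 0.18 SE and 0.26 ± 0.18 SE, in that order, and Rfc3 had 0.14 without PBS replicate 3. Rfc1, the large subunit, had 0.07 ± 0.18 SE, and 0.17 without that array. Rfc4 had 6.40 to 6.89 in G-CSF samples and 5.75 to 8.11 in PBS samples. Rfc5 had 8.07 to 8.61 in G-CSF samples and 7.26 to 9.16 in PBS samples, so that for both the PBS range was the wider. For both genes PBS replicate 3 was the highest array, where it was the lowest for the polymerase genes other than Prim1. The log2 fold change of Rfc4 was 0.06 ± 0.41 SE with it and 0.55 without it, and that of Rfc5 was 0.05 ± 0.37 SE with it and 0.30 without it.

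Lig1, the ligase that seals Okazaki fragments, had 7.49, 7.67, 8.20 and 8.16 in G-CSF samples, against 7.59, 7.45, 7.68 and 7.19 in PBS samples, with G-CSF replicates 3 and 4 above the PBS range. Its log2 fold change was 0.40 ± 0.21 SE. Rpa2, the middle subunit of the single-strand binding protein RPA, had 6.98, 6.83, 7.20 and 7.12 in G-CSF samples, against 7.002, 6.41, 6.93 and 6.41 in PBS samples, a log2 fold change of 0.35 ± 0.20 SE. Rpa1, the large subunit, had 6.64, 6.70, 6.90 and 7.38 in G-CSF samples, against 6.69, 7.08, 6.90 and 6.59 in PBS samples. The 3 genes overlapped between groups, and Rpa1 and Rpa3 had log2 fold changes of 0.09 ± 0.21 SE and 0.04 ± 0.22 SE. The second Rpa3 probe set gave a difference of 0.09. Fen1, the flap nuclease, had -0.01 ± 0.29 SE, and 0.21 without PBS replicate 3.

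The 5 genes of nucleotide supply had positive log2 fold changes, with a median of 0.43, and of 0.47 without PBS replicate 3. Rrm2, the small subunit of ribonucleotide reductase that limits dNTP synthesis in S phase, had 7.12, 7.22, 7.33 and 7.71 in G-CSF replicates 1 to 4, against 6.44, 6.83, 6.98 and 6.47 in PBS replicates 1 to 4. The groups did not overlap, and its level was 1.58-fold higher (log2 fold change 0.66 ± 0.20 SE, 95% interval 0.23 to 1.10, limma adjusted p = 0.357, and 0.116 to 0.826 over 17 alternatives). Without PBS replicate 3 its log2 fold change was 0.76. Rrm1, the large subunit, had 8.36, 8.74, 8.96 and 9.001 in G-CSF samples, against 8.36, 8.47, 7.34 and 7.86 in PBS samples. G-CSF replicate 1 lay within the PBS range, and the log2 fold change was 0.75 ± 0.26 SE (limma adjusted p = 0.453), or 0.53 without PBS replicate 3.

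Dut, which removes dUTP, had 7.94, 8.18, 8.35 and 8.38 in G-CSF samples, against 7.997, 7.87, 7.89 and 7.37 in PBS samples. Its groups overlapped through G-CSF replicate 1, and the log2 fold change was 0.43 ± 0.19 SE (limma adjusted p = 0.549). Thymidylate synthase (Tyms) had 0.41 ± 0.20 SE and thymidine kinase (Tk1) had 0.34 ± 0.33 SE, which was -0.01 without PBS replicate 3. The second Tk1 probe set gave a difference of 0.32.

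**Figure D4:**
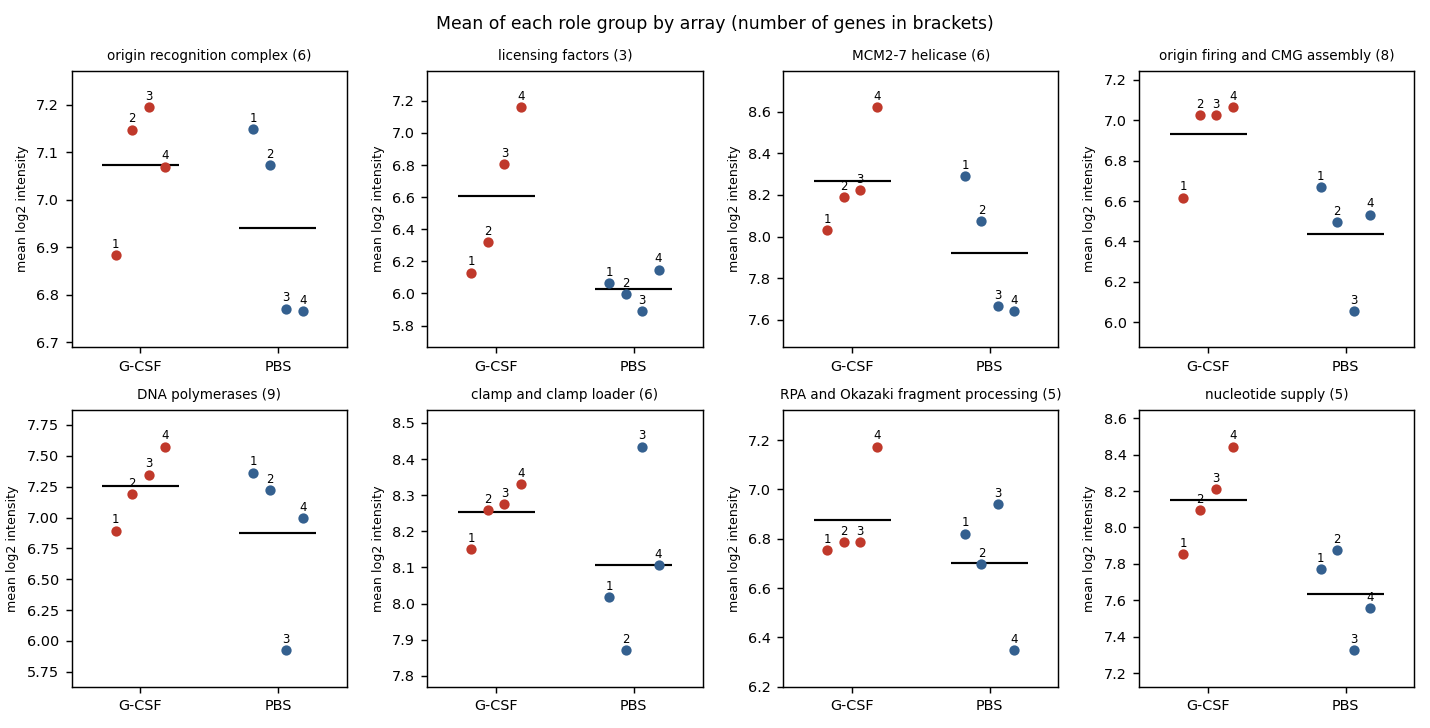
Mean log2 intensity of the genes of each role group on each array (points, numbered by replicate), with the group mean as a line and a separate y axis for each panel. G-CSF replicate 1 is the lowest of the G-CSF arrays in all 8 panels, and PBS replicate 3 is the lowest PBS array for the polymerases at 5.93 and the highest for the clamp and its loader at 8.43.

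The G-CSF arrays differed among themselves. Averaged over the 48 genes, G-CSF replicates 1 to 4 were at 7.18, 7.41, 7.497 and 7.67 and PBS replicates 1 to 4 at 7.32, 7.21, 6.83 and 7.05. G-CSF replicate 1 lay below PBS replicates 1 and 2, and the other G-CSF arrays lay above every PBS array. Among the G-CSF arrays, replicate 1 was the lowest for 31 of the 48 genes (64.6%), against 24.96% of all genes, and replicate 4 the highest for 31 (64.6%), against 23.3% of all genes. Of all 8 arrays, G-CSF replicate 4 was the highest for 24 of the 48 (50%), against 9.98% of all genes. After quantile normalization it was the highest for 15.

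Markers of neutrophils, a cell type the sort should leave out, had higher values in the G-CSF samples. Their mean (23 genes of 25 listed) stood at 10.07, 10.05, 8.06 and 8.69 in G-CSF replicates 1 to 4, against 8.04, 6.99, 7.39 and 7.25 in PBS replicates 1 to 4, and their summed intensity was 21084 to 52407 in G-CSF samples and 9055 to 20106 in PBS samples. At an unadjusted p under 0.05, 20 of the 23 were higher, against 6.07% of all genes and 11% of bright genes, and 0 passed over all genes. The arrays with the highest means of neutrophil markers, G-CSF replicates 1 and 2, had the lowest means of the replication genes within their group. In the PBS group the order differed, as PBS replicate 1 had the highest neutrophil mean (8.04) and the highest replication mean (7.32). Granulocyte-monocyte progenitors are dividing marrow cells that give rise to neutrophils and monocytes. Of 15 of their genes measured, 14 had a positive log2 fold change (93.3%, against 41.7% of all genes and 66.5% of bright genes). At an unadjusted p under 0.05, 7 were higher, against 6.07% of all genes and 11% of bright genes. Over all genes 1 passed, against 0.0953% of all genes. That gene, Csf2rb, a receptor subunit for cytokines of the myeloid lineage, rose by a log2 fold change of 1.59 ± 0.21 SE (limma adjusted p = 0.0199). Their median was 0.91, and 0.90 without PBS replicate 3, and their array means were 7.85, 7.70, 7.43 and 7.73 in G-CSF samples, against 7.55, 7.07, 6.55 and 6.33 in PBS samples. Cd34 and Flt3, which progenitors past the stem cell carry in mouse, had log2 fold changes of 0.87 ± 0.35 SE and 0.80 ± 0.46 SE (limma adjusted p = 0.517 and 0.583). Csf2rb, Cd34 and Flt3 were chosen after their values were seen. Cd34 and Flt3 come from a list of 16 genes of the stem cell sort and signature. Of these 16, 7 had a positive log2 fold change (43.8%, against 41.7% of all genes and 66.5% of bright genes). Their median was -0.03, against 0.13 over bright genes. Which cells held the marker RNA was not tested, nor was the part of neutrophil or progenitor RNA in the replication values. In RNA from sorted pools, fewer cells of a type and less RNA per cell cannot be told apart, so neither the number of cycling cells nor their transcript level can be read from these means.

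Of 21 mitotic genes measured, 0 passed over all genes, 17 were higher at an unadjusted p under 0.05 (against 6.07% of all genes and 11% of bright genes), and the groups did not overlap in 9 (against 3.37% of all genes and 6.18% of bright genes). Their median log2 fold change was 0.83, and 0.74 without PBS replicate 3, against 0.37 and 0.23 for the replication genes. The difference between the lists was not tested. Their array means were 7.26, 7.31, 7.67 and 7.86 in G-CSF replicates 1 to 4, against 6.79, 7.02, 6.41 and 6.596 in PBS replicates 1 to 4, without overlap. Mki67, the proliferation marker, had a log2 fold change of 0.71 ± 0.18 SE (limma adjusted p = 0.292) and Cenpe, a kinetochore motor, had 0.93 ± 0.21 SE (limma adjusted p = 0.206). In the same list, Tpx2 had 1.03 ± 0.25 SE and Ccnb2 had 1.15 ± 0.29 SE (limma adjusted p = 0.26 and 0.28).

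**Figure D5:**
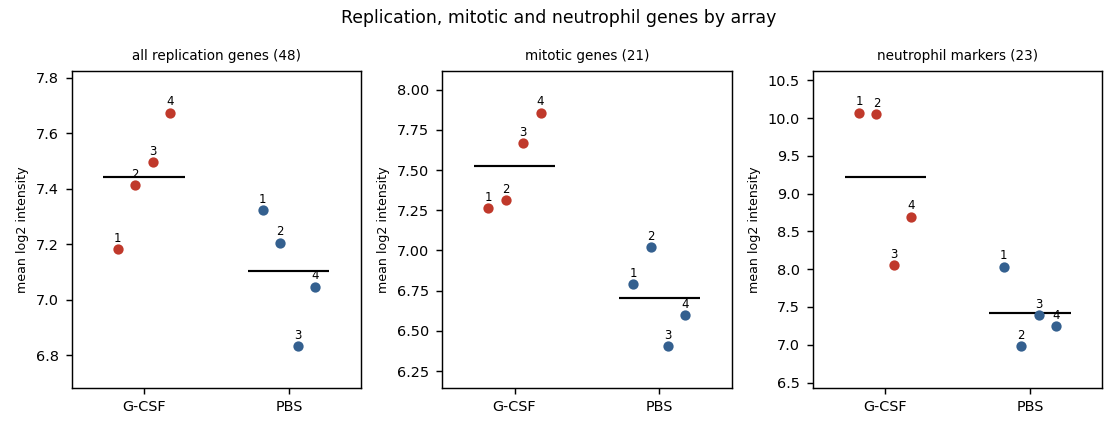
Mean log2 intensity of the 48 replication genes, 21 mitotic genes and 23 neutrophil markers on each array (points, numbered by replicate), with the group mean as a line and a separate y axis for each panel. G-CSF replicate 1 has the lowest replication mean of the G-CSF arrays, 7.18, and the highest neutrophil mean, 10.07. PBS replicate 1 has the highest replication mean of the PBS arrays, 7.32, and their highest neutrophil mean, 8.04.

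Of 31 further replication genes measured, 0 passed and 22 had a positive log2 fold change (71.0%, against 41.7% of all genes and 66.5% of bright genes). The median was 0.22. It was 0.12 without PBS replicate 3, with 21 above 0, and 0.11 after quantile normalization. Ticrr, which brings Cdc45 to the helicase, had a log2 fold change of 0.67 ± 0.20 SE and Top2a, the topoisomerase of S phase and mitosis, had 0.65 ± 0.24 SE. Rif1, which restrains the firing of origins, had 6.87, 6.83, 6.67 and 7.13 in G-CSF samples, against 7.34, 7.42, 7.67 and 7.29 in PBS samples. Its G-CSF values all lay below the PBS values, as did those of 2.78% of all genes, with a log2 fold change of -0.55 ± 0.17 SE (limma adjusted p = 0.385).

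Of 15 genes that couple chromatin to replication, 14 had a positive log2 fold change (93.3%, against 41.7% of all genes and 66.5% of bright genes). The median was 0.34 and 0 passed. Pclaf, a small protein that binds Pcna, had 8.14, 8.29, 8.64 and 8.20 in G-CSF samples, against 7.41, 7.42, 6.16 and 6.74 in PBS samples. Its groups did not overlap, and its log2 fold change was 1.38 ± 0.28 SE (limma adjusted p = 0.133). Esco2, the acetyltransferase of S phase cohesion, had 0.83 ± 0.18 SE (limma adjusted p = 0.204). Of 32 E2F and G1-S regulators, 24 had a positive value, against 41.7% of all genes and 66.5% of bright genes, and 0 passed. Their median was 0.12, against 0.13 over bright genes. Without PBS replicate 3 their median was 0.17, against 0.05 over bright genes. Foxm1, a transcription factor of G2 phase genes, had 1.19 ± 0.34 SE and Ccnd1, which encodes cyclin D1, had -0.64 ± 0.24 SE (limma adjusted p = 0.326 and 0.482). Cks1b had 0.60 ± 0.18 SE and Cdk6 had 0.71 ± 0.25 SE (limma adjusted p = 0.373 and 0.451).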

How the data were processed

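Each of the 8 arrays (MoGene 1.0 ST) measured 1 pooled sample, after RNA XS purification and NuGen Ovation amplification, per the labels' protocols. Linear intensities (2.15 to 16162), 1 for each probe set, were deposited. They were made with RMA, per the submitters' processing notes, and its options and version are not stated there. Log2 was taken before each test.

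Of 35556 probe sets, 21789 had 1 gene symbol, 1621 several and 12146 none in the platform annotation. Per gene, the single-symbol probe set with the highest mean was kept (19938 genes). G-CSF was compared with PBS by limma 3.58.1 in R 4.3.3 (lmFit, eBayes, 2-sided). P-values were adjusted over all genes by Benjamini-Hochberg, with a threshold of 0.05 and no filter on dim genes. The script was tested on simulated data. The genes and lists were chosen with earlier results of these data known, and named by a rule: per role group the 3 lowest p-values and all of MCM2-7 are given per array, and per other list up to 4 genes. Cdc7 was added after its values were seen. Errors are SE of the log2 fold change unless SD is named. The number of arrays limits the precision. Alternatives left out each array in turn or changed the normalization, the array weights, the block, the probe set choice, the genes tested or the eBayes options.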

Additional observations from a re-analysis of the deposited data

Results flagged for a closer look

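In 7 of the 96 groups of 4 arrays (48 genes in 2 groups), 1 array stood far from the other 3 by Dixon's criterion, which chance alone meets in about 1 of 20 groups. In the G-CSF group, Orc6 was at 8.309 in replicate 3 (the others at 7.531 to 7.632), Rpa3 at 6.319 in replicate 3 (the others at 7.176 to 7.214) and Rfc5 at 8.073 in replicate 1 (the others at 8.571 to 8.613). G-CSF replicate 4 stood apart for 2 helicase genes, Mcm2 at 8.339 (the others at 7.698 to 7.749) and Mcm7 at 8.260 (the others at 7.703 to 7.776). In the PBS group, replicate 3 stood apart for Gins4, at 5.422 (the others at 7.561 to 7.703), and for Mcm3, at 6.924 (the others at 7.933 to 8.056). All are log2 intensities.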

How the results depend on the processing

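Under 17 alternatives, 0 replication genes passed an adjusted p of 0.05. The count at an unadjusted p under 0.05, 7 with all arrays, was 11 with array weights and 3 to 15 when 1 array was left out. The count of genes whose groups did not overlap, 3 with all arrays, was 1 after quantile normalization and 3 to 14 with 1 array left out. The median log2 fold change, 0.37 with all arrays, was 0.23 (without PBS replicate 3) to 0.45 with 1 array left out. Of all genes, 19 passed as higher, against 37 with array weights, 10 after quantile normalization, 0 with all probe sets in the fit (lowest adjusted p 0.0615) and 3 (without G-CSF replicate 2) to 30 (without G-CSF replicate 3) with 1 array left out. Of 814 log2 fold changes of replication genes under the alternatives, 766 kept their sign and their side of the threshold and 48, in 16 genes, had the other sign. With array weights these were Gins3 (-0.022), Pola2 (-0.035), Prim2 (-0.19) and Fen1 (0.21). After quantile normalization they were Mcm2 (-0.015), Pcna (-0.0175), Rfc1 (-0.0305), Rfc4 (-0.0242), Rfc5 (-0.0368), Rpa1 (-0.0109) and Rpa3 (-0.0585). With quantile normalization and without PBS replicate 3 they were Pola2 (-0.17), Prim2 (-0.27), Pold3 (-0.26), Fen1 (0.25) and Tk1 (-0.0558). With 1 array left out, the sign turned within -0.0385 to 0.26 for Rpa3, -0.28 to 0.21 for Fen1, -0.13 to 0.30 for Gins3, -0.33 to 0.30 for Rfc5, -0.23 to 0.55 for Rfc4, -0.20 to 0.28 for Mcm2, -0.24 to 0.41 for Prim2, -0.0675 to 0.18 for Rpa1, -0.18 to 0.0229 for Orc4, -0.14 to 0.48 for Pola2, -0.21 to 1.08 for Pold3, -0.0119 to 0.58 for Tk1, -0.0064 to 0.54 for Orc2, -0.0208 to 0.27 for Mcm4 and -0.0435 to 0.17 for Rfc1. The cause was not tested. Same-numbered arrays correlated at -0.025 to 0.135 in their deviations from the group means, and 1 of 4 G-CSF arrays matched its own number best, so the numbers were not taken as pairs. With the replicate block, 6 replication genes were higher at an unadjusted p under 0.05, and the share of all genes at that threshold was not computed. At an adjusted p under 0.05, 0 replication genes passed and 23 of all genes were higher.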
